A study of Mus musculus with 288 samples.

Results

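Among mouse lung cells of the Scgb1a1 lineage, the wells rich in the secretoglobin Scgb3a1 were compared between those rich in Bpifa1 and those with little of it. A well entered when its total was above 2340 counts, which is 10 times the 234 counts of the fuller negative control, when Scgb3a1 held at least 1% of its counts, and when Sftpc held under 1%. Wells with at least 2% of counts in Bpifa1 formed the Bpifa1-high side (22 wells), and wells with under 0.5% formed the Bpifa1-low side (37 wells). These 59 wells were 20.6% of the 286 sorted wells, and 227 sorted wells passed the limit on totals. The members were thus chosen by measured values of Bpifa1, Scgb3a1 and Sftpc, which are described and not read as results.

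Both sides came from one kind of sample, sorted Scgb1a1+,CD24low cells of C57BL/6 mice aged 4 month with the genotype Scgb1a1-CreER;Rosa26-mTmG, a recombinase under the club cell secretoglobin promoter with a membrane reporter. The recombinase marks cells by the activity of that promoter, so cells that never used it were outside the sort. The 2 negative controls were wells of medium. No label names the animal of a well, so each side was 1 sample and no difference has a replicate check. For each gene the ratio of pooled CPM (the summed count over the summed total of the wells of a side, on the usual scale) was taken, Bpifa1-high over Bpifa1-low, with an exact conditional binomial 95% interval that covers counting error only. A gene was called higher or lower when this ratio reached 2-fold in that direction with an interval clear of 1, given at least 20 counts over the 2 sides. These calls are a rule of size, not a test across animals.

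BPIFA1 (SPLUNC1) is a secreted protein of the nasal and upper airway lining that lowers surface tension, binds bacterial products and restrains the epithelial sodium channel. SCGB3A1 is a small secretoglobin of secretory cells that is known from larger airways, and SCGB1A1 is the main secretoglobin of club cells. Lactoferrin, BPIFB1 and REG3G are other secreted defence proteins of mucosal surfaces, while surfactant proteins A and B, CHIL1 and RETNLA are secreted in the distal lung, by alveolar type 2 (AT2) cells and, for several of them, by bronchiolar club cells.

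Start regions are printed for the gene that split the wells, 2 defence genes that were higher and 3 distal lung genes that were lower. Each holds 250 bases before and 50 after the annotated start, taken from RefSeq on GRCm38.p6 and printed on the strand of the gene. Capitals mark matches on either strand to a TATA box (TATAAA), a forkhead motif (TGTTTNC), an NKX2-1 core (CAAGTG), a C/EBP motif (TTGCNNAA) or a STAT motif (TTCNNNGAA), overlaps allowed. Bpifa1 lies at chr2:154142630-154142929 (+), Ltf at chr9:111019042-111019341 (+), Reg3g at chr6:78468825-78469124 (-), Retnla at chr16:48842359-48842658 (+), Sftpb at chr6:72304360-72304659 (+) and Sftpa1 at chr14:41131538-41131837 (+).
Bpifa1: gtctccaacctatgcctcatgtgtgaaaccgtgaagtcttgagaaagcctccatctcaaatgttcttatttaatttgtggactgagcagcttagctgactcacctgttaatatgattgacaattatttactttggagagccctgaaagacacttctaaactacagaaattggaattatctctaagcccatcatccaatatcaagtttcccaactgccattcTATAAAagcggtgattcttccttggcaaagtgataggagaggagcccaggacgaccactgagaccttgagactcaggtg
Ltf: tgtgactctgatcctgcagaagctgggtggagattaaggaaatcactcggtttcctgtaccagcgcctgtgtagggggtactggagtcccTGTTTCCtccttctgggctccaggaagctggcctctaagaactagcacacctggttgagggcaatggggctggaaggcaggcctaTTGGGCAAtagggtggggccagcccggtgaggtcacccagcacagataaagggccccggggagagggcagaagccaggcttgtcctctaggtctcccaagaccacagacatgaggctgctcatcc
Reg3g: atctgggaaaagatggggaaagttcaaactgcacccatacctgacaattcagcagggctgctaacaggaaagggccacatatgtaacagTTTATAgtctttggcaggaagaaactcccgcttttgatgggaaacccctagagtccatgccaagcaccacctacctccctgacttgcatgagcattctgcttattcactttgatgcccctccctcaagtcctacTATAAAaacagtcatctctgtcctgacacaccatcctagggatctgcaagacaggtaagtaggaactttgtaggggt
Retnla: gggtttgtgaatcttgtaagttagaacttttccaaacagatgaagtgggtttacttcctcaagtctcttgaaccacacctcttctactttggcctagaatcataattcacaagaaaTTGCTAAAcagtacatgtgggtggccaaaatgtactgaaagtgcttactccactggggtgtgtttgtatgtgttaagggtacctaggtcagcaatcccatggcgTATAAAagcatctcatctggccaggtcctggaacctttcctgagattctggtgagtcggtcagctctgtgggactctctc
Sftpb: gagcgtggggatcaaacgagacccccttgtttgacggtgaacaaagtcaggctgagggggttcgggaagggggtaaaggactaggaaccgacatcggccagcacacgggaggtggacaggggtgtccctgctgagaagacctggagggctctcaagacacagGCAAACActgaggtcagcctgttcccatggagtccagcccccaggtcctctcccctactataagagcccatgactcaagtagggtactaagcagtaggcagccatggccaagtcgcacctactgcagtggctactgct
Sftpa1: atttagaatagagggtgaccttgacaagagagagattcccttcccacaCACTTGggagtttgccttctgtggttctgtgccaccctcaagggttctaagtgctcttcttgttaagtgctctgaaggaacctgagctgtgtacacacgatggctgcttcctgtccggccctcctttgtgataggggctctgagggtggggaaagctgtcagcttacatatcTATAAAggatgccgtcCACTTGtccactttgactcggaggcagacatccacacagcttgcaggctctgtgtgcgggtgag

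Bpifa1, Reg3g, Retnla and Sftpa1 held a TATA box that began 29, 27, 30 and 30 bases before the start. Reg3g held a second one 161 bases before it. Ltf held a forkhead match at 160 and a C/EBP match at 75 bases before the start, Retnla a C/EBP match at 134, and Sftpb a forkhead match at 88. Sftpa1 held the NKX2-1 core at 202 and 14 bases before the start. Of 27025 mouse start regions of this length, 14.2% held the TATA box, 20.5% the forkhead motif, 13.5% the NKX2-1 core, 10.8% the C/EBP motif and 8.47% the STAT motif. Of the 99 higher and 54 lower genes described below, 67 of the higher and 43 of the lower had a start region in the RefSeq table. Of the 1575 measured genes with such a region, 9.46% held the TATA box and 15.4% the forkhead motif. The forkhead motif was in 14.9% of the matched higher and 11.6% of the matched lower regions. The TATA box was in 8.96% of the matched higher and 16.3% of the matched lower regions. For the NKX2-1 core the shares were 10.4% of matched higher, 14.0% of matched lower and 11.0% of measured regions. In the same order they were 11.9, 14.0 and 8.32% for the C/EBP motif, and 4.48, 11.6 and 6.48% for the STAT motif. These matches are letters in a window and were not tested as binding sites.

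The values that chose the wells were as follows. Bpifa1 held 2.17, 5.98 and 22.0% of counts in the lowest, median and highest Bpifa1-high well, against 0, 0.0329 and 0.291% in Bpifa1-low wells. Pooled, this was 83128 CPM (12798 counts) in Bpifa1-high and 818 CPM (212 counts) in Bpifa1-low wells, where 22 of 37 wells held a count. Around the thresholds, the lowest Bpifa1-high wells stood at 2.17 and 2.30%, the highest Bpifa1-low wells at 0.249 and 0.291%, and the 15 wells between the sides ran from 0.511 to 1.96%. Scgb3a1 ranged from 1.19 to 10.4% (median 4.94%) in Bpifa1-high and from 1.01 to 10.7% (median 3.91%) in Bpifa1-low wells, and the closest well outside held 0.876%. Sftpc, the surfactant gene that defines AT2 cells, had 90.9 CPM in Bpifa1-high and 88.8 CPM in Bpifa1-low wells.

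Depth was alike on the sides. Totals ran from 5211 to 10151 counts (median 6967.5) in Bpifa1-high wells and from 3376 to 15088 (median 6983) in Bpifa1-low wells, with a median of 1769.5 genes in Bpifa1-high and 1752 genes in Bpifa1-low wells. The columns of the table in successive sets of 96 held 12, 9 and 1 Bpifa1-high wells against 19, 14 and 4 Bpifa1-low wells. What these sets stand for is not given in the labels. Values within the first and second are given for some genes, among them Msln, Ifit1 and Scgb3a2, whose direction differs between them.

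Both sides carried club and mucous secretory genes, so the label of Scgb3a1 secretory cells held on each. Muc5b, the secreted gel-forming mucin of healthy airways, had a count in every well of both sides. Among the club genes, Scgb1a1, Scgb3a2, Cyp2f2 and Cbr2 also had a count in every well of both sides. Markers of other cell types were near 0 in part. The basal marker Krt15 and the gland marker Ltf, described further on, had 105 and 658 counts in Bpifa1-high wells. In Bpifa1-low wells they had 2 and 127 counts. The AT2 marker Sftpb had 24 counts in Bpifa1-high and 426 in Bpifa1-low wells. The ciliated markers Tppp3 and Ccdc153 had 7 and 0 counts in Bpifa1-high and 16 and 12 in Bpifa1-low wells. The basal cell markers Krt5, Krt14 and Ngfr had 0 counts on both sides, and Trp63 had 1 count in Bpifa1-high and 0 in Bpifa1-low wells. A count of 0 allows up to 19.5 CPM in Bpifa1-high and 11.6 CPM in Bpifa1-low wells, taking 3 counts as the limit. The leukocyte genes Ptprc, Cd68 and Coro1a had 0 counts on both sides. The AT2 genes Lamp3, Slc34a2 and Napsa had 0 counts in Bpifa1-high wells, against 1, 10 and 0 counts in Bpifa1-low wells. The gland markers Lpo, Dmbt1 and Azgp1 had 0, 1 and 0 counts in Bpifa1-high and 0, 0 and 2 counts in Bpifa1-low wells. Xist had 0 counts on both sides, and Ddx3y had a count in 5 of 22 Bpifa1-high and 7 of 37 Bpifa1-low wells.

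Of 2005 measured genes, 99 were higher in Bpifa1-high wells (4.94%) and 54 were lower (2.69%), and the median log2 ratio over all was 0.05. These shares are the reference for the called members of every list below. Krt15, Ltf and Cyp2a5 were among the higher genes with the most counts and largest ratios, and Retnla, Sftpb and Sftpa1 among the lower ones. Bpifa1 itself takes a share of each total, so the split depends on the scaling. With Bpifa1, Scgb3a1 and Sftpc left out of the totals the median moved by 0.14 and 146 genes were higher and 39 lower. With TMM scaling, a trimmed mean over genes, it moved by -0.16 and 74 were higher and 84 lower. The share of higher genes among those called was 64.7, 78.9 and 46.8% in these 3 scalings. The wells between the sides had an intermediate pooled level for 80 of the 99 higher and 44 of the 54 lower genes. Such genes were called for a wide difference between the sides in the same data, which by itself favours an intermediate level. The share over all measured genes was not taken as a reference, so a graded change was not tested.

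**Figure D1:**
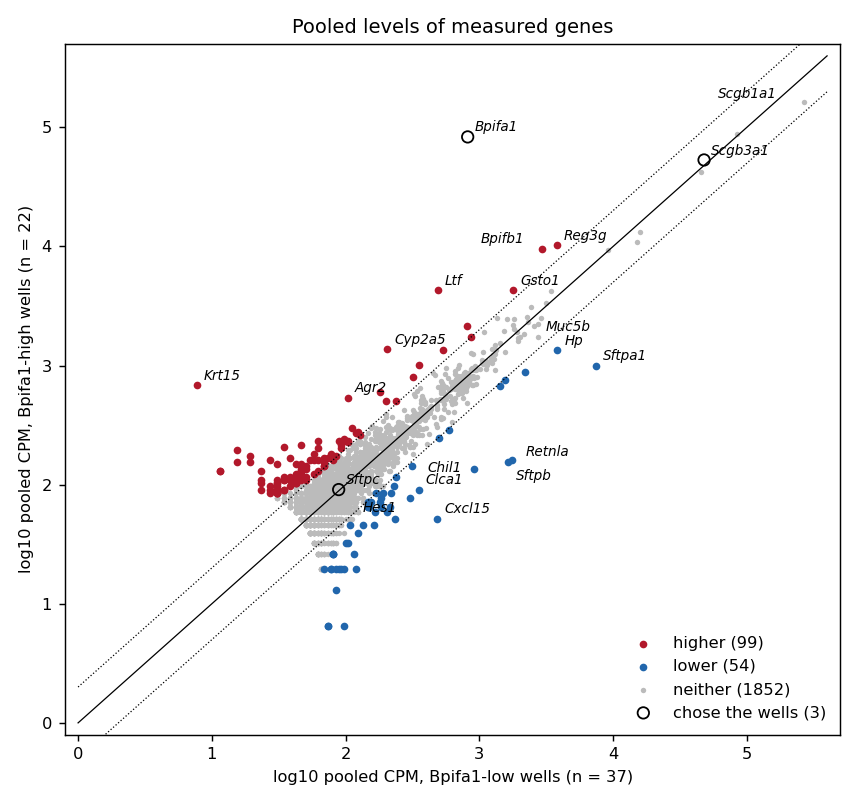
Pooled level of each of the 2005 measured genes, as log10 CPM, in the 22 Bpifa1-high wells (vertical axis) against the 37 Bpifa1-low wells (horizontal axis). The solid line marks equal levels and the dotted lines a 2-fold difference. Red points are the 99 higher genes and blue points the 54 lower genes, and open circles are the 3 genes that chose the wells. Krt15 and Ltf stand farthest above the line among labelled genes that did not choose the wells, and Sftpa1, Retnla and Sftpb well below it.

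Secreted defence proteins were higher in Bpifa1-high wells in part. Ltf, Bpifb1 and Reg3g were all higher, and 5 of the 10 measured antimicrobial genes were higher and 3 lower (median log2 ratio 0.68, against 0.05 over all measured genes). The 3 lower members, Retnla, Sftpa1 and Chil1, are products of the distal lung and are described further on. The median of the list was -0.12 with wells thinned to equal depth, -0.28 within the first set and 0.05 within the second. In each of these, 8 genes of the list had enough counts, in place of 10. The genes in the median thus differed as well as the wells.

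Ltf, which encodes the iron-binding protein lactoferrin (chromosome 9, 111019271 to 111042767, plus strand, GENCODE M21 on GRCm38), had 0, 1561 and 26498 CPM in the lowest, median and highest Bpifa1-high well, against 0, 199 and 2815 CPM in Bpifa1-low wells. A count was found in 20 of 22 Bpifa1-high and 23 of 37 Bpifa1-low wells, and 8 Bpifa1-high wells lay above the highest Bpifa1-low well, so the sides overlapped in part. Pooled, Ltf had 4274 CPM (658 counts) in Bpifa1-high and 490 CPM (127 counts) in Bpifa1-low wells, a ratio of 8.72 (7.20 to 10.6). Within the first set of columns it had 4110 CPM in Bpifa1-high and 772 CPM in Bpifa1-low wells, and within the second 3446 CPM in Bpifa1-high and 256 CPM in Bpifa1-low wells. At equal depth of 3151 counts, 72.7% of Bpifa1-high and 48.6% of Bpifa1-low wells held a count (90.9% of Bpifa1-high and 62.2% of Bpifa1-low wells before thinning). The 63 wells with Sftpc at 1% or more held 0 Ltf counts at a median total of 3529, which allows up to 12.5 CPM.

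Bpifb1 (LPLUNC1), a relative of Bpifa1 from the same gene cluster on chromosome 2 (154190818 to 154220369, plus strand), had 0, 8195 and 18739 CPM in the lowest, median and highest Bpifa1-high well, against 0, 2082 and 9370 CPM in Bpifa1-low wells. A total of 9 Bpifa1-high wells lay above the highest Bpifa1-low well. Pooled levels were 9581 CPM (1475 counts) in Bpifa1-high and 2930 CPM (759 counts) in Bpifa1-low wells, a ratio of 3.27 (2.99 to 3.57). Bpifb1 was common on the low side too, with a count in 33 of 37 wells. In the 90 wells with both Scgb3a1 and Sftpc under 1%, Bpifb1 had 43.5 CPM.

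Reg3g, a lectin that kills Gram-positive bacteria (chromosome 6, 78466269 to 78468872, minus strand), had 1702, 8196 and 26744 CPM in the lowest, median and highest Bpifa1-high well, against 0, 2062 and 13738 CPM in Bpifa1-low wells. All 22 Bpifa1-high wells held it, 7 of them lay above the highest Bpifa1-low well, and 17 Bpifa1-low wells lay below the lowest of them. Pooled, it had 10204 CPM in Bpifa1-high and 3798 CPM in Bpifa1-low wells (log2 ratio 1.43, interval 1.31 to 1.54). This call was lost within the second set of columns, at 8801 CPM in Bpifa1-high and 5095 CPM in Bpifa1-low wells (log2 ratio 0.79), and with at least 5% of counts in Bpifa1 on the high side (0.88). In the first set it had 12133 CPM in Bpifa1-high and 2858 CPM in Bpifa1-low wells.

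Smaller contributions came from Pglyrp1, a peptidoglycan recognition protein, with 507 CPM in Bpifa1-high and 201 CPM in Bpifa1-low wells (2.52-fold, 1.75 to 3.66). Wfdc1, of the whey acidic protein family, had 123 CPM in Bpifa1-high and 46.3 CPM in Bpifa1-low wells. Lyz2, a lysozyme that is also a marker of AT2 cells and macrophages, had 27 counts in Bpifa1-high and 5 in Bpifa1-low wells, a ratio of 9.09 (3.45 to 30.2). In the 5 Bpifa1-high wells that held it, the counts were 13, 6, 4, 3 and 1, and without the first of these wells it was no longer called (log2 ratio 2.30). The other leukocyte markers of the list had 0 counts in Bpifa1-high wells and 1 count in Bpifa1-low wells.

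**Figure D2:**
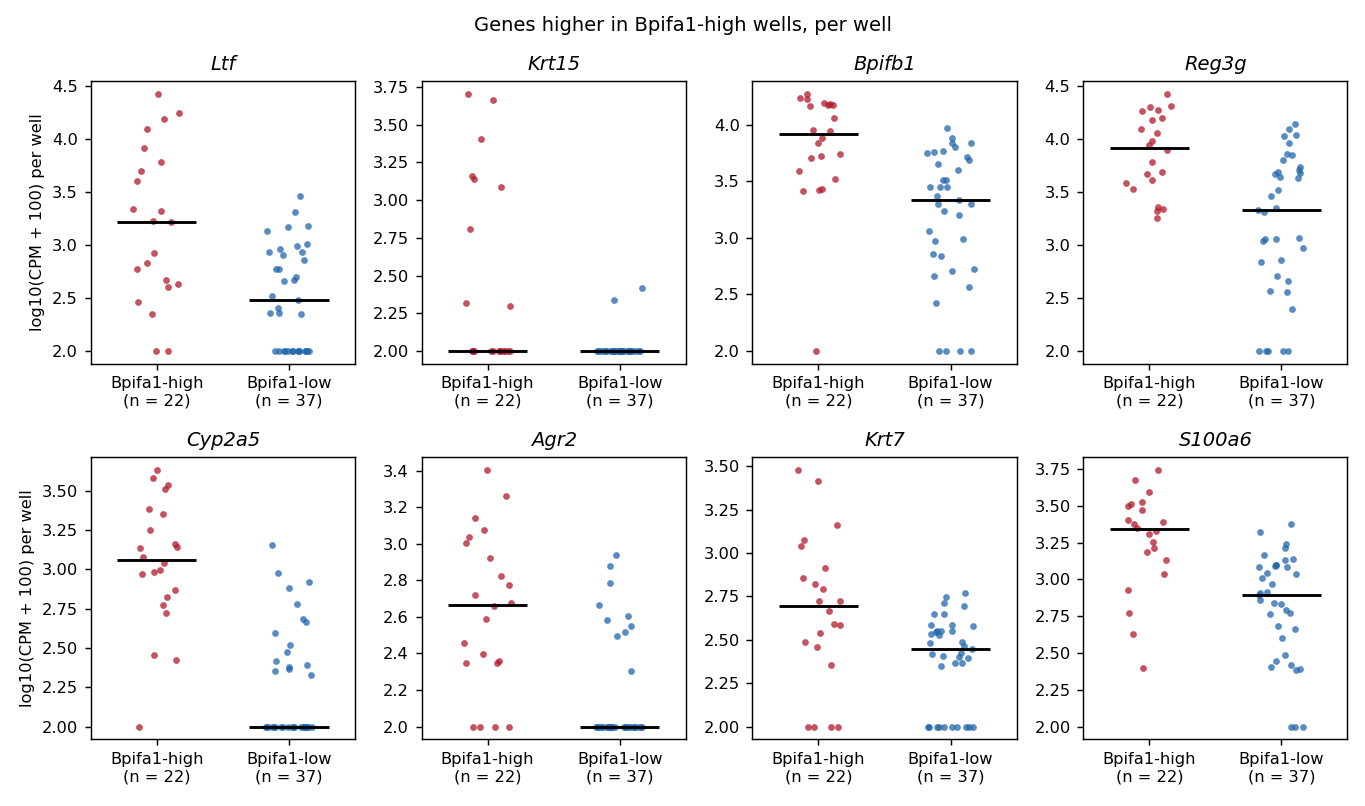
Level per well, as log10(CPM + 100), of 8 genes higher in Bpifa1-high wells. Each red point is a Bpifa1-high well (n = 22), each blue point a Bpifa1-low well (n = 37), and the black line is the median. Krt15 sits at 0 counts in most wells of both sides and reaches 4973 CPM in Bpifa1-high wells, while Bpifb1 and Reg3g are spread over both sides with a higher median in Bpifa1-high wells.

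Keratins were higher as a group, with Krt15 far apart from the others. Of 6 measured keratins, 4 were higher and 0 lower (median log2 ratio 1.20, against 0.05 over all measured genes). Krt15, a keratin of basal and early transitional cells (chromosome 11, 100131758 to 100135928, minus strand), had counts of 32, 26, 17, 9, 9, 7, 3, 1 and 1 in 9 Bpifa1-high wells and 0 in the other 13, against 1 count in each of 2 Bpifa1-low wells and 0 in the other 35. The 7 wells with 3 or more counts were all Bpifa1-high. They belonged to all 3 sets of columns. Pooled, Krt15 had 682 CPM in Bpifa1-high and 7.72 CPM in Bpifa1-low wells, a ratio of 88.3 with the wide interval of 23.9 to 739. At equal depth 36.4% of Bpifa1-high and 0% of Bpifa1-low wells held a count, where 0 of 37 allows up to 8.11%, and before thinning 40.9% of Bpifa1-high and 5.41% of Bpifa1-low wells held one. None of the 15 wells between the sides held a count, which allows up to 20.0%. The 90 Scgb3a1-low wells held 8 counts in 8 wells.

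Krt15 came without the other basal keratins. Krt5 and Krt14 had 0 counts in the 9 Bpifa1-high wells with a Krt15 count, and Trp63, the basal cell transcription factor, had 1 count. Of the 7 measured basal cell genes, Krt15 was higher, and Dsp and Icam1 were lower. Dsp, the desmosome protein desmoplakin, had 2 counts in Bpifa1-high and 22 in Bpifa1-low wells (ratio 0.153, interval 0.0174 to 0.622). Icam1, an adhesion molecule, had 3 counts in Bpifa1-high and 22 in Bpifa1-low wells (0.229, 0.0440 to 0.764). Without Krt15, the summed basal list ran from 183 to 1603 CPM per well (median 833) in Bpifa1-high and from 0 to 1777 CPM (median 712) in Bpifa1-low wells.

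The simple-epithelial keratins differed less. Krt7 had 598 CPM in Bpifa1-high and 181 CPM in Bpifa1-low wells (3.29-fold, 2.29 to 4.79), with 9 Bpifa1-high wells above the highest Bpifa1-low well. Krt23 had 234 CPM in Bpifa1-high and 88.8 CPM in Bpifa1-low wells. Krt19 had 1728 CPM in Bpifa1-high and 861 CPM in Bpifa1-low wells, at the edge of the 2-fold rule, and fell under it in 8 of 13 alternative settings. Krt8 and Krt18, the general keratins of simple epithelia, were not called at log2 ratios of 0.90 (0.68 to 1.11) and 0.54 (0.22 to 0.85).

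Some annexin, S100 and galectin genes that are known from hillock and transitional airway cells were higher. Of 17 measured genes of that list, 5 were higher, 0 lower and 12 called in neither direction (median 0.75, against 0.05 and 4.94% higher over all measured genes). S100a6, a calcium-binding protein, had 149, 2088 and 5489 CPM in the lowest, median and highest Bpifa1-high well, against 0, 682 and 2285 CPM in Bpifa1-low wells (2.64-fold, 2.21 to 3.16). Anxa1, a phospholipid-binding protein that dampens inflammation, had 142, 914 and 2486 CPM in Bpifa1-high and 0, 307 and 1092 CPM in Bpifa1-low wells (2.84-fold, 2.18 to 3.71). In both genes the highest Bpifa1-high wells, 9 and 8 in number, lay above every Bpifa1-low well. Lgals3, the carbohydrate-binding galectin-3, was 2.51-fold higher (2.02 to 3.14). S100a10, the partner of annexin A2, had 20 counts in Bpifa1-high and 3 in Bpifa1-low wells, a ratio of 11.2 (3.33 to 59.0). Krt19 was the fifth. Anxa2 and Clu, at 0.95 and 0.83, were not called. Of the keratins of that list, Krt4 had 0 counts on both sides. Krt13, with a count in 13.6% of Bpifa1-high and 2.70% of Bpifa1-low wells, had too few counts to compare.

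Xenobiotic enzymes of club cells split into a few that were higher and a majority that were not called. Of 31 measured genes 5 were higher and 0 lower (median 0.20). Over all measured genes 4.94% were higher and 2.69% lower (median 0.05). Cyp2a5, a coumarin hydroxylase of the olfactory and airway lining (chromosome 7, 26835305 to 26843548, plus strand), had 0, 1044 and 4204 CPM in the lowest, median and highest Bpifa1-high well, against 0, 0 and 1334 CPM in Bpifa1-low wells. A count was found in 21 of 22 Bpifa1-high and 16 of 37 Bpifa1-low wells. The pooled ratio was 6.73 (4.96 to 9.28), from 212 counts in Bpifa1-high and 53 in Bpifa1-low wells, and at equal depth 90.9% of Bpifa1-high and 27.0% of Bpifa1-low wells held a count. Its near-identical relative Cyp2a4 had 25 counts in Bpifa1-high and 7 in Bpifa1-low wells, and how reads were shared between them is uncertain.

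Of the other 3 higher enzymes, which were chosen for naming after their values were seen, Gsto1 was the most abundant. Gsto1, an omega-class glutathione transferase, had 1386, 3829 and 7729 CPM in the lowest, median and highest Bpifa1-high well, against 0, 1648 and 4147 CPM in Bpifa1-low wells (2.38-fold, 2.11 to 2.69). A total of 10 Bpifa1-high wells lay above every Bpifa1-low well. Ces1f, a carboxylesterase, and Cyp4a12b, a fatty acid hydroxylase, were at log2 ratios of 1.92 and 1.17. The leading club enzymes Cyp2f2 and Cbr2 were not called, with log2 ratios of -0.49 and -0.28.

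Goblet and mucin genes were called in both directions. Of 16 measured genes 2 were higher and 1 lower (median 0.22), against 4.94% higher and 2.69% lower over all measured genes (median 0.05). Agr2, the disulfide isomerase needed for mucin folding, had 0, 365 and 2446 CPM in the lowest, median and highest Bpifa1-high well, against 0, 0 and 770 CPM in Bpifa1-low wells. Pooled, it had 83 counts in Bpifa1-high and 27 in Bpifa1-low wells, 5.17-fold (3.32 to 8.31), with a count in 18 of 22 Bpifa1-high and 10 of 37 Bpifa1-low wells. Fcgbp, a mucus-bound protein, was 3.23-fold higher (1.54 to 7.11). Clca1, a mucus-processing protease, had 14 counts in 3 Bpifa1-high and 91 counts in 15 Bpifa1-low wells. Its log2 ratio of -1.95 was -0.88 at equal depth and then not called.

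Muc5b was lower in Bpifa1-high wells by less than the 2-fold rule asks. It had 549, 1659 and 3732 CPM in the lowest, median and highest Bpifa1-high well, against 129, 2414 and 6289 CPM in Bpifa1-low wells. Pooled, this was 1741 CPM in Bpifa1-high and 2764 CPM in Bpifa1-low wells, a log2 ratio of -0.67 (-0.87 to -0.46). Tff2, a trefoil peptide secreted with mucins, was at -0.30 (-0.49 to -0.11). Muc5ac, the inducible mucin, had 7 counts in Bpifa1-high and 8 in Bpifa1-low wells, and Spdef, the goblet cell transcription factor, had 1 in Bpifa1-high and 7 in Bpifa1-low wells, too few to compare.

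Among secretoglobins that did not choose the wells, neither measured one was called. Scgb1a1 had 55495, 159930 and 250230 CPM in the lowest, median and highest Bpifa1-high well, against 158660, 272350 and 332150 CPM in Bpifa1-low wells. A total of 10 Bpifa1-high wells lay below every Bpifa1-low well, and 27 Bpifa1-low wells lay above every Bpifa1-high well. The pooled log2 ratio was -0.71 (-0.73 to -0.69), with 16.4% of all counts in Bpifa1-high and 26.9% in Bpifa1-low wells, and it bears on the scaling of every other gene. Scgb3a2 was at -0.11 (-0.15 to -0.06), and its direction turned between the sets. Within the first set Scgb3a2 had 52589 CPM in Bpifa1-high and 46223 CPM in Bpifa1-low wells. Within the second it had 33363 CPM in Bpifa1-high and 47425 CPM in Bpifa1-low wells.

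Several genes of the distal lung were lower in Bpifa1-high wells, and others were not called. Of 8 measured AT2 markers 4 were lower and 1, Lyz2, was higher (median -1.90, against 0.05 over all measured genes). Sftpa1, surfactant protein A (chromosome 14, 41131782 to 41136452, plus strand), had 0, 334 and 4729 CPM in the lowest, median and highest Bpifa1-high well, against 0, 6445 and 20142 CPM in Bpifa1-low wells. A total of 25 of 37 Bpifa1-low wells lay above every Bpifa1-high well. Pooled, it had 994 CPM (153 counts) in Bpifa1-high and 7446 CPM (1929 counts) in Bpifa1-low wells, a log2 ratio of -2.91 (-3.15 to -2.67). Within the sets it had 1655 CPM in Bpifa1-high and 7835 CPM in Bpifa1-low wells of the first, and 374 CPM in Bpifa1-high and 6896 CPM in Bpifa1-low wells of the second.

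Sftpb, the surfactant protein B gene (chromosome 6, 72304610 to 72314371, plus strand), had 0, 53.9 and 711 CPM in the lowest, median and highest Bpifa1-high well, against 0, 952 and 6007 CPM in Bpifa1-low wells. A count was found in 11 of 22 Bpifa1-high and 34 of 37 Bpifa1-low wells, and the log2 ratio was -3.40 (-4.06 to -2.81). Cxcl15, a lung chemokine, had 8 counts in Bpifa1-high and 126 in Bpifa1-low wells (-3.23, -4.47 to -2.20). Chil1, a chitinase-like protein without enzyme activity, had 21 counts in Bpifa1-high and 236 in Bpifa1-low wells (-2.74, -3.46 to -2.09). Sftpd, surfactant protein D, was not called at -0.37 (-0.72 to -0.03).

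The defining AT2 markers were at or near 0 on both sides. Sftpc had been held under 1% by the choice of wells and was level between the sides, and Napsa had 0 counts on both. The summed AT2 list without Sftpc ran from 362 to 6609 CPM per well (median 1778) in Bpifa1-high, from 1131 to 30806 CPM (median 11137) in Bpifa1-low wells, and from 21236 to 121650 CPM (median 89719) in the 63 Sftpc-expressing wells. Without Sftpb, Sftpa1, Cxcl15, Chil1 and Lyz2 its median was 761 CPM in Bpifa1-high and 1031 CPM in Bpifa1-low wells, against 29047 CPM in Sftpc-expressing wells. The 90 Scgb3a1-low wells had 3988 CPM of Sftpa1, 5358 of Sftpb, 1542 of Cxcl15 and 491 of Chil1. For Sftpb and Cxcl15 the Bpifa1-low side lay between the Bpifa1-high side and those wells. For Sftpa1 and Chil1 the Bpifa1-low side, at 7446 and 911 CPM, lay above those wells.

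Retnla and Hp belong to the list of distal club genes, of which 2 of 13 measured were lower and 0 higher (median -0.08). Over all measured genes 2.69% were lower and 4.94% higher (median 0.05). Retnla, a resistin-like secreted protein (chromosome 16, 48842551 to 48844461, plus strand), had 0, 0 and 1687 CPM in the lowest, median and highest Bpifa1-high well, against 0, 696 and 14218 CPM in Bpifa1-low wells. A count was found in 7 of 22 Bpifa1-high and 31 of 37 Bpifa1-low wells. At equal depth the shares were 22.7% of Bpifa1-high and 73.0% of Bpifa1-low wells (31.8% of Bpifa1-high and 83.8% of Bpifa1-low wells before thinning). The log2 ratio was -3.42 (-4.07 to -2.84), from 25 counts in Bpifa1-high and 451 in Bpifa1-low wells. It was lower in both larger sets, with 263 CPM in Bpifa1-high and 2333 CPM in Bpifa1-low wells of the first, and 69.2 CPM in Bpifa1-high and 1255 CPM in Bpifa1-low wells of the second. Pooled, Retnla had 1741 CPM in Bpifa1-low wells and 1316 CPM in the Scgb3a1-low wells.

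Hp, haptoglobin, which binds free haemoglobin (chromosome 8, 109575128 to 109579172, minus strand), had 0, 735 and 3558 CPM in the lowest, median and highest Bpifa1-high well, against 1164, 3278 and 11938 CPM in Bpifa1-low wells. A total of 14 Bpifa1-high wells lay below every Bpifa1-low well, and 15 Bpifa1-low wells lay above every Bpifa1-high well. Pooled, it had 1345 CPM in Bpifa1-high and 3817 CPM in Bpifa1-low wells (-1.51, -1.73 to -1.29). The Scgb3a1-low wells had 7145 CPM. Transferrin (Trf, -1.08) and ceruloplasmin (Cp, -1.03), secreted carriers of iron and copper, were lower as well and were chosen for naming after their values were seen.

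**Figure D3:**
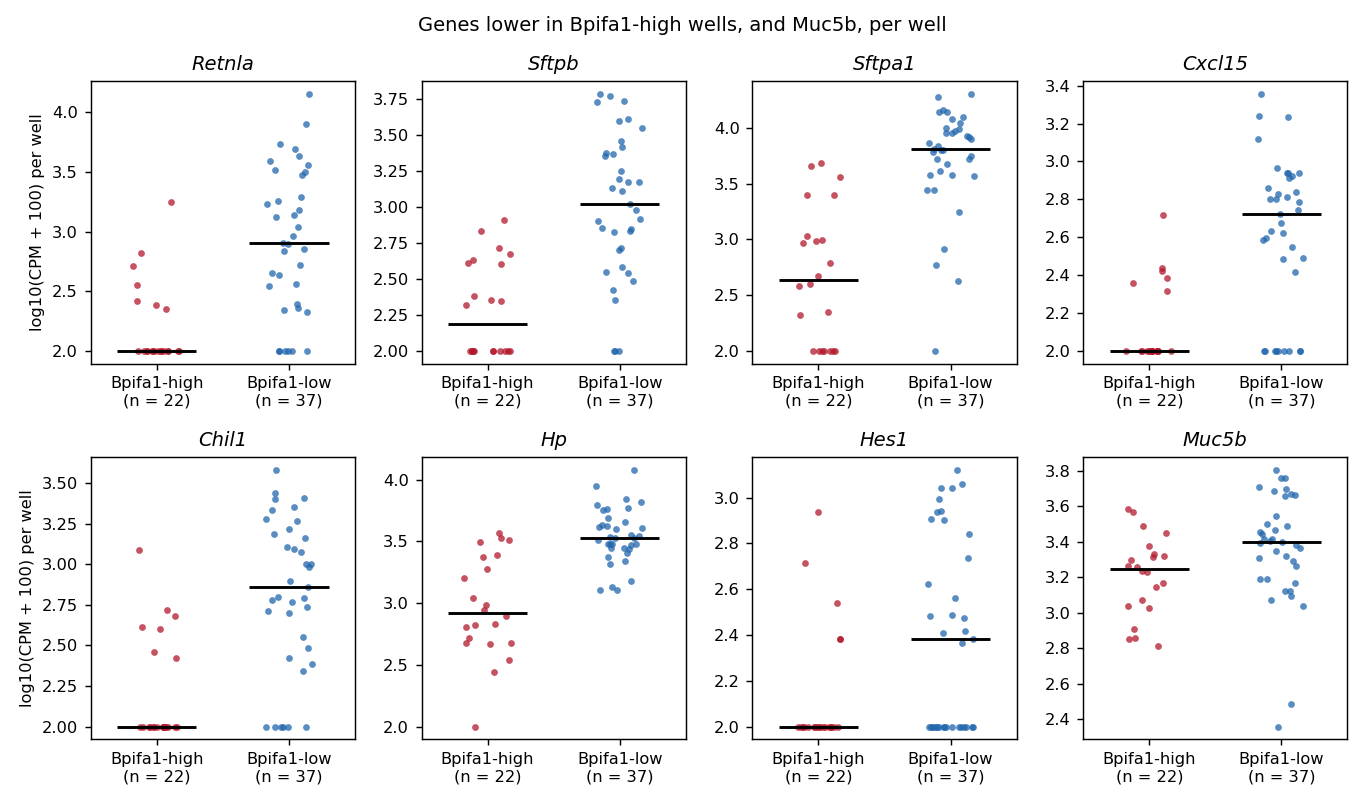
Level per well, as log10(CPM + 100), of 7 genes lower in Bpifa1-high wells and of Muc5b, which was not called. Red points are Bpifa1-high wells (n = 22), blue points Bpifa1-low wells (n = 37), and black lines are medians. For Sftpa1, 25 of the 37 Bpifa1-low wells lie above every Bpifa1-high well, and for Hp, 14 Bpifa1-high wells lie below every Bpifa1-low well.

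Signalling and regulatory genes were sparse. Of 4 measured Notch genes Hes1, a target of the pathway, was lower, with 12 counts in Bpifa1-high and 78 in Bpifa1-low wells (-1.95, -2.96 to -1.06). The receptor Notch2 and the effector Rbpj were not called, at 0.17 and -0.01. Socs3, an inhibitor of cytokine signalling, had 3 counts in Bpifa1-high and 31 in Bpifa1-low wells (ratio 0.163, 0.0319 to 0.522). Of 28 measured immediate early genes Socs3 was the one lower and 3 were higher, among them Cyr61, a matricellular protein, at 5.98-fold (2.79 to 14.3). Of 23 measured transcription factors Id1 was higher and Cebpd lower. The Id1 log2 ratio of 1.67 was 0.04 with at least 5% of counts in Bpifa1 on the high side, and Cebpd, at -1.03, was not called in 5 of 13 alternative settings. Wnt7b, a secreted Wnt ligand, had 16 counts in Bpifa1-high and 8 in Bpifa1-low wells (3.37-fold, 1.36 to 9.08).

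Channels also stood on both sides. Of 18 measured ion and water transport genes Scnn1b was lower and Kcne3 higher. Scnn1b, a subunit of the epithelial sodium channel, had 7 counts in Bpifa1-high and 42 in Bpifa1-low wells (-1.83, -3.23 to -0.67). The partner subunits Scnn1a and Scnn1g were not called, at -0.25 and -1.08. Kcne3, a potassium channel subunit, had 22 counts in Bpifa1-high and 12 in Bpifa1-low wells (1.63, 0.55 to 2.77). Outside the lists, Kcnk2, a potassium channel, had 8 counts in 6 Bpifa1-high and 61 counts in 30 Bpifa1-low wells (-2.18, -3.45 to -1.11). Msln, the surface protein mesothelin, had 33 counts in Bpifa1-high and 12 in Bpifa1-low wells (4.63-fold, 2.33 to 9.84), but the direction turned between the sets. In the first set it was lower, with 3 counts (39.4 CPM) in Bpifa1-high and 12 counts (98.6 CPM) in Bpifa1-low wells. In the second it had 25 counts in Bpifa1-high and 0 in Bpifa1-low wells, and in the third 5 counts in the 1 Bpifa1-high well and 0 in Bpifa1-low wells.

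In most of the remaining lists few genes were called. Of 12 measured MHC and interferon genes 4 were higher and 0 lower (median 0.70, against 0.05 and 4.94% higher over all measured genes). With TMM factors 2 of the 12 were higher. Ifit1, an interferon-induced gene, was at 1.75 and Psmb8, an immunoproteasome subunit, at 1.45, each from at most 16 counts on a side. Ifitm3 and Ly6a, chosen for naming after their values were seen, were at 1.32 and 1.08. Both had more CPM in Bpifa1-high wells within the first and the second set. Of the 16 Ifit1 counts in Bpifa1-high wells 13 came from the first set, and in the second set the direction turned, with 1 count (13.8 CPM) in Bpifa1-high and 4 counts (34.1 CPM) in Bpifa1-low wells. H2-K1 and H2-D1, class I genes that share sequence, were not called at 0.73 and 0.35. Of 36 endoplasmic reticulum secretory genes 0 were higher and Sec61a1, a translocon subunit, was lower. Of 37 respiratory chain genes 0 were called (median 0.07). Of 18 junction and surface genes F11r and Ceacam1 were higher, at 1.65 and 1.19. Of 19 antioxidant genes Cat and Sod2 were lower, at -1.25 and -1.11. Of 12 complement and chemokine genes Cxcl15 and Cxcl5 were lower. Of 14 lysosomal genes Npc2 was lower, at -1.05. Several of these calls were lost in alternative settings. Sod2 was not called in 7 of 13, Cat in 5 of 13, and Sec61a1 and Npc2 in 4 of 13 each. Cxcl5 was not called in 5 of the 12 settings run on it, and Psmb8 in 6 of 10.

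**Figure D4:**
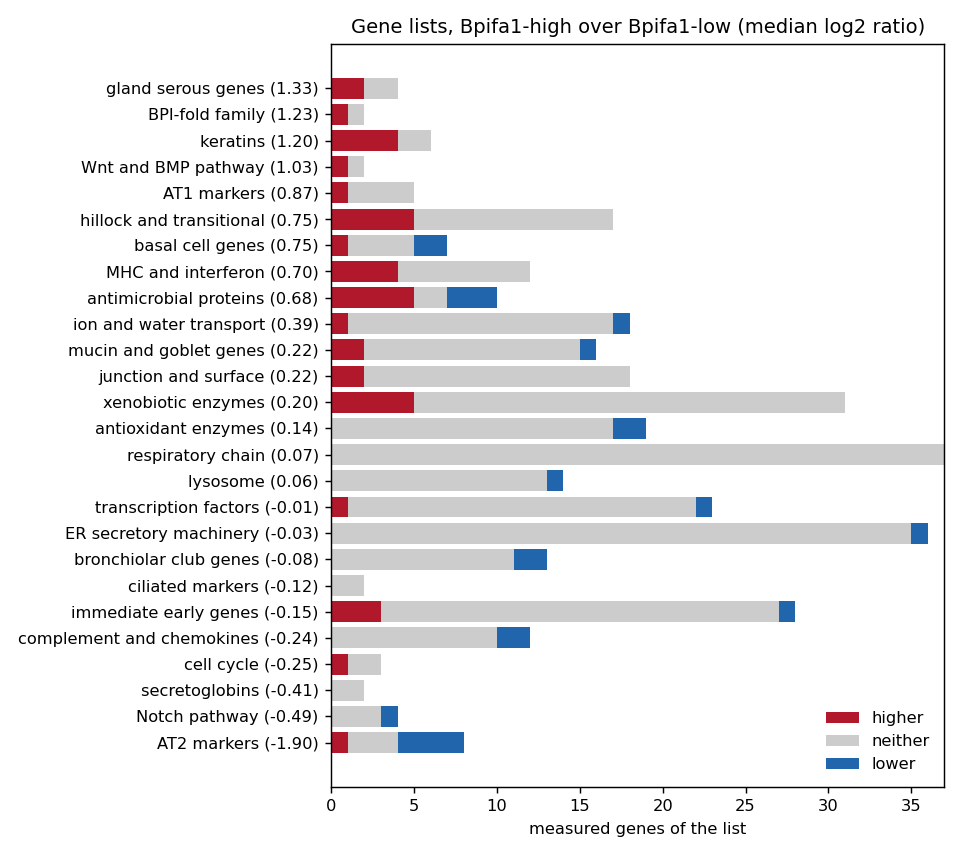
Number of measured genes in each list that were higher (red), called in neither direction (grey) or lower (blue) in Bpifa1-high over Bpifa1-low wells, with the median log2 ratio of the list in parentheses. Over all 2005 measured genes 4.94% were higher and 2.69% lower. Keratins (4 of 6 higher), antimicrobial proteins (5 of 10 higher, 3 lower) and AT2 markers (4 of 8 lower, 1 higher) stand out from the many lists with few called genes. The lists share members and are not independent. Sftpa1, Chil1 and Lyz2, for example, count in both the antimicrobial and the AT2 list.

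Within the 22 Bpifa1-high wells, pairs of the higher genes had correlations of both signs. These correlations are across single wells of unequal depth and are given as descriptions. Those with Bpifa1 use the gene that chose the wells, over the range the choice left. Spearman's rho of Bpifa1 was 0.57 with Krt15, 0.45 with Ltf, 0.58 with Agr2 and -0.72 with Scgb1a1, shares of one total that Bpifa1 itself fills in part. It was -0.46 with Reg3g and -0.24 with Bpifb1. Ltf and Krt15 had a rho of 0.59 with each other, and Bpifb1 and Reg3g had 0.33. Ltf and Reg3g had -0.43, and Ltf and Bpifb1 had -0.29. The rho of Bpifa1 with the total of the well was -0.16. In the 37 Bpifa1-low wells, where Bpifa1 ran from 0 to 0.291% of counts, the rho of Bpifa1 was 0.46 with Reg3g, 0.48 with Bpifb1 and 0.32 with Ltf. There Ltf and Reg3g had 0.34, Ltf and Bpifb1 0.44, Bpifb1 and Reg3g 0.64 and Ltf and Krt15 -0.11. The rho of Bpifa1 with the total was 0.51. Krt15 had 0 counts in 13 of the 22 Bpifa1-high and 35 of the 37 Bpifa1-low wells. Its correlations thus rest on many ties and cannot be compared between the sides.

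The 9 Bpifa1-high wells with a Krt15 count held 7996 CPM of Ltf, against 1597 CPM in the 13 without. They held 123650 CPM of Bpifa1, against 53983 CPM in the 13 without. Reg3g had 7375 CPM in the wells with a Krt15 count and 12240 CPM in those without, and Bpifb1 had 9688 CPM in the wells with a Krt15 count and 9504 CPM in those without. Ltf was higher in the wells with a Krt15 count, and Reg3g was not. These groups were made from the measured Krt15 and are a description.

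**Figure D5:**
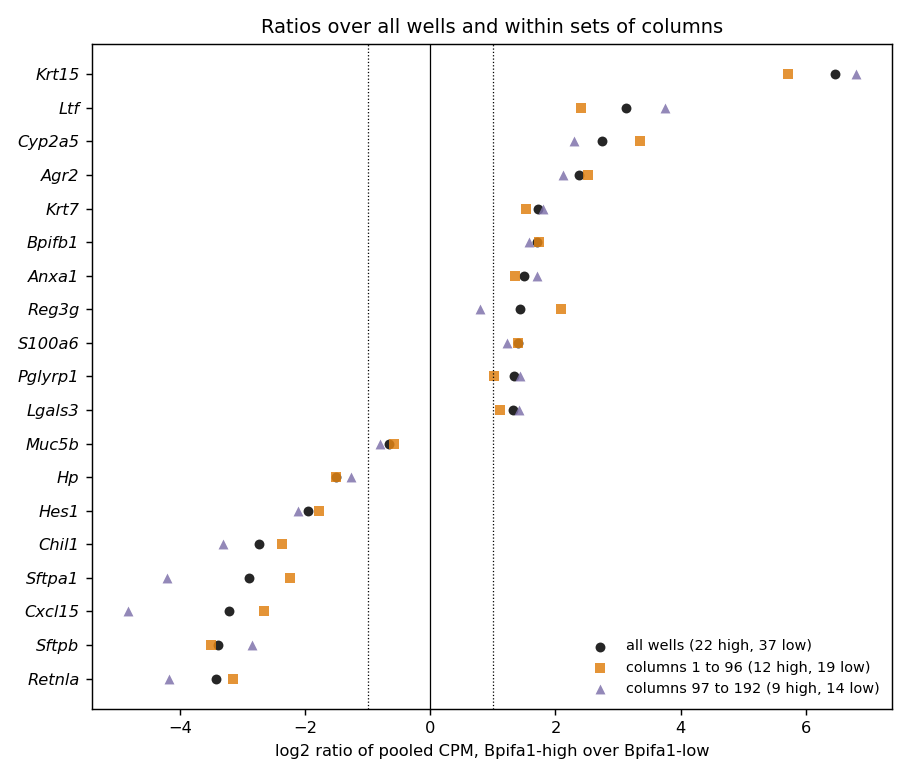
Log2 ratio of pooled CPM, Bpifa1-high over Bpifa1-low, for 19 genes over all wells (black circles) and within the first set of 96 columns of the table (orange squares) and the second (violet triangles). Dotted lines mark 2-fold. Each gene kept its sign in both sets, and Reg3g in the second set (0.79) is the one gene past the 2-fold rule over all wells that falls short of it within a set.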

How the data were processed

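Single lung epithelial cells were sorted into wells and sequenced from poly(A)-primed, barcoded cDNA, per the labels' protocols. The authors deposited raw counts as whole numbers, 1 row for each of 24781 gene symbols and 1 column for each of 288 wells. Alignment used STAR to mm10, per the submitters' processing notes. The annotation, the counting tool, strand use and whether molecular barcodes were collapsed were not given in the sources used here. If they were not collapsed, PCR copies were counted separately and the intervals are too narrow.

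Counts were summed over the wells of each side and compared as ratios of pooled CPM with exact conditional binomial intervals at 95% (Python 3.11.15, pandas 2.3.3, numpy 2.4.6, scipy 1.17.1, matplotlib 3.10.9). The procedure was run on simulated pooled counts with counting error only. These held no spread between wells, so the run cannot show how the calls behave under such spread. A count of 0 was read as 3 counts. TMM factors came from edgeR 4.0.16 in R 4.3.3 as an alternative scaling. No p-value was computed, since each side is 1 sample. Doublets were not called, given the small number of wells, and leaving out the wells of highest total was an alternative. The ribosomal RNA gene Rn45s held 8.85% of Bpifa1-high and 8.50% of Bpifa1-low counts and stayed in the totals. For equal depth, wells were thinned to 3151 counts, which left out no well of either side. Symbols were matched to GENCODE M21 for coordinates. No columns held identical counts.

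The wells, the gene lists and the choices of test were made with earlier results of these data known. Named genes were Ltf, Krt15, Muc5b and every called member of the antimicrobial, BPI-fold, goblet, gland serous, basal, keratin, hillock and secretoglobin lists. From every other list the 2 called members of largest ratio were named. Outside the lists, the rule took the 8 genes of largest ratio in each direction with at least 40 counts and a count in at least 5 wells of the higher side. Alternatives covered the totals, scaling, pooling, thresholds of the sides, depth, count minimum, fold, sets of 96 columns, wells of highest total and the well of most counts.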

Additional observations from a re-analysis of the deposited data

Results flagged for a closer look

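Bpifa1 counts were also found outside the 59 compared wells, above the 1 count in the control wells. The 59 sorted wells at or under the limit on totals held 76 Bpifa1 counts, and 2 of these wells had at least 2% of their counts in Bpifa1, the highest at 3.91% from 41 counts. The 90 kept wells with Scgb3a1 and Sftpc both under 1% held 20 counts, at most 4 in a well (0.0827%). The 63 kept wells with Sftpc at 1% or more held 13 counts, at most 4 in a well (0.127%). The 15 wells between the sides held 1232 counts. No well outside the Scgb3a1-rich ones and above the limit on totals reached 2%.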

How the results depend on the processing

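Of the 63 named genes, 25 kept their direction and their call or lack of one in every alternative in which they had enough counts, 19 of them in all 13 and the other 6 in at least 10. Below the count minimum, Msln in the first set and Ifit1 in the second turned direction, as given above. In place of 99, the number of higher genes was 45 with wells thinned to equal depth (29 of them among the 99), 38 and 55 within the first and second sets of columns (22 and 28 among the 99), 56 without the well of most counts of each gene, 27 with at least 50 counts, 219 with no count minimum and 40 at 3-fold. In place of 54, the number of lower genes was 84 with TMM factors, 19 with thinned wells (13 of them among the 54), 26 and 30 within the sets (19 and 22 among the 54), 28 with at least 50 counts, 99 with no minimum and 30 at 3-fold. Higher calls were the fewer of the directions with TMM factors (74 higher, 84 lower) and with at least 50 counts. Thinning, the sets and the higher minimum leave fewer counts or wells. The cause of the other moves was not tested. Leaving Scgb1a1 out of the totals with the 3 genes that chose the wells, chosen after seeing the data, gave 95 higher and 58 lower. The third set held 1 Bpifa1-high well and was not run. No paired analysis was possible because the wells and controls share only running numbers and the results come from no test. Median totals of 6967.5 counts in Bpifa1-high and 6983 in Bpifa1-low wells limit sparse genes, so a gene at 0 counts in a well may still be expressed there.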

Other observations

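Outside the lists, 16 genes were named by size of ratio. Among the higher ones, Serpinb1a, an inhibitor of neutrophil proteases, had 31 counts in 15 Bpifa1-high wells and 16 counts in 10 Bpifa1-low wells, and Lif, a cytokine, had 25 counts in Bpifa1-high and 16 in Bpifa1-low wells. Flna, an actin crosslinker, Cenpb, a centromere protein, and Hsd17b4, a peroxisomal enzyme, were at log2 ratios of 1.49, 1.42 and 1.28, and D17H6S56E-5 and Oit1 at 1.34 and 1.24. Among the lower ones, Gabarapl1, an autophagy protein, Plpp3, a lipid phosphatase, and Cd200, a surface ligand that restrains myeloid cells, were at -1.81, -1.73 and -1.57. Pebp1 and Phyh were at -1.51 each, and Gas5, a growth-arrest transcript, and Npm1, nucleophosmin, at -1.38 and -1.34. Ccnd2, a cyclin, and Hopx, an AT1 marker, were higher at 1.49 and 1.51 as the called members of their lists. Some genes of few counts had larger ratios and were chosen for naming after their values were seen. Basp1 had 30 counts in Bpifa1-high and 4 in Bpifa1-low wells, Lgals9, a galectin, 24 in Bpifa1-high and 4 in Bpifa1-low wells, and Alox15, a lipoxygenase, 20 in Bpifa1-high and 3 in Bpifa1-low wells. Nav2 had 1 count in Bpifa1-high and 25 in Bpifa1-low wells, and Sfta2, a surfactant-associated gene, 1 in Bpifa1-high and 19 in Bpifa1-low wells.

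The ciliated list held 102 counts in Bpifa1-high and 206 in Bpifa1-low wells. Its summed level reached 1464 CPM in the highest Bpifa1-high well and 9022 CPM in the highest Bpifa1-low well, and Foxj1, the ciliated transcription factor, had 1 count in Bpifa1-high and 5 in Bpifa1-low wells. Neither measured ciliated gene was called.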
